A study of Mus musculus with 147 samples.

Results

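The genes described here encode parts of antibodies and of the B cell receptor. They are Igha, Ighm and Igkc (the constant regions of the IgA heavy chain, the IgM heavy chain and the kappa light chain), Jchain (the joining chain of polymeric IgA and IgM), Mzb1 (an endoplasmic reticulum protein that assists antibody assembly), Cd79a and Cd79b (the signalling chains of the B cell receptor) and Ms4a1 (the B cell surface protein CD20). They were chosen by name, and all 8 of them were found among the 50686 gene identifiers of both count tables. The libraries came from sorted mouse macrophages and monocytes, 110 of them from a refeeding experiment and 37 from a diet experiment. Refed mice had food withheld for 12 h and then chow for 2 h, and fasted mice had the 12 h without food alone. Colonic macrophages, adipose tissue macrophages, monocytes and microglia each had 9 refed and 8 fasted libraries, islet macrophages and Kupffer cells 7 refed and 6 fasted, and peritoneal macrophages 8 of each, over 4 cohorts. In the diet experiment mice ate a high-fat diet over 8 weeks and were given streptozotocin (STZ, which destroys insulin-producing beta cells) at week 4, ate the high-fat diet alone, or ate a normal diet. These diets had 5, 4 and 5 peritoneal libraries, 3, 4 and 4 islet libraries and 4 microglia libraries each. The labels give no strain, sex, age or sort gate. A library started from 400 sorted cells, except for the diet peritoneal libraries (100000 cells) and diet microglia libraries (5000 cells).

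A B cell assembles its receptor genes once, by joining V, D and J segments of the heavy chain locus and V and J segments of a light chain locus. All descendants of that cell carry the same joined segments. A B cell displays IgM with the CD79A and CD79B chains at its surface, whereas a plasma cell secretes antibody and loses CD20 and most surface receptor. The gut wall holds many IgA plasma cells, and the peritoneal cavity holds B-1 cells, a self-renewing B cell type that makes natural IgM. In such bulk libraries, fewer cells of a type and less RNA per cell cannot be told apart.

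Some of the results turn on which segments were read, so the segments are shown here, taken from the GENCODE M21 transcripts of the GRCm38 assembly (mm10, the build of the counts) on the minus strand unless stated. The 4 heavy chain J segments were counted in microglia almost without V genes. Capitals mark the bases TGGGG, which encode the conserved tryptophan and the start of the glycine that follow the third complementarity-determining region.
Ighj1 (chr12:113429781-113429833): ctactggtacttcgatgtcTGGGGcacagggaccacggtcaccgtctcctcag
Ighj2 (chr12:113429468-113429515): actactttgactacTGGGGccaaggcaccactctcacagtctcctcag
Ighj3 (chr12:113429085-113429132): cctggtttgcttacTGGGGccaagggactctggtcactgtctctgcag
Ighj4 (chr12:113428514-113428567): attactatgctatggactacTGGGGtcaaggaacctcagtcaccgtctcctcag
The V genes Ighv11-2 and Ighv12-3 of the heavy chain and Igkv14-126 (plus strand) and Igkv4-91 of the kappa chain are used in pairs by mouse B-1 cells that bind phosphatidylcholine. Their last 60 bases are printed, with the codons for tyrosine, tyrosine or phenylalanine, and cysteine, just before the third complementarity-determining region, in capitals.
Ighv11-2 (chr12:114048241-114048300): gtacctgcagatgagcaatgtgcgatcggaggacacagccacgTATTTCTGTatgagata
Igkv14-126 (chr6:67896583-67896642): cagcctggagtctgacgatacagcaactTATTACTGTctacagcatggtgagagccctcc
Ighv12-3 (chr12:114366521-114366580): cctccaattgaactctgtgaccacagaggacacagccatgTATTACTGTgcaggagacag
Igkv4-91 (chr6:68768555-68768614): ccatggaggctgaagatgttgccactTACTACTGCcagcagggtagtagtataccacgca

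Library totals, in units of 1000000 counts, lay between 7.92 and 27.3 for refeeding and between 11.35 and 34.5 for diet. Levels are given as CPM, a gene's counts per 1000000 counts of its library. The descriptions of 4 refed libraries (islet 1_2 and 3, Kupffer 1 and 2) name fasting only and go against their titles, and they were kept as refed. Colonic libraries also held RNA of other cells: summed over their lists, pancreatic acinar genes had a median of 11198.4 CPM and gut epithelium genes 359 CPM over the 17 libraries. Their part in the results was not tested. In 5 libraries from outside the colon the antibody V genes overlapped those of a colonic library with another replicate number by more than 50% in both chains, as described with the V genes.

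IgA RNA was a major transcript of most colonic libraries and low in most libraries of the other populations. Igha (chr12:113254830-113260236, minus strand) ranged from 3.35 to 85761 CPM with a median of 20048 CPM in the 9 refed colonic libraries, and from 7.96 to 48257 CPM with a median of 5966 CPM in the 8 fasted ones. In the other 6 populations of the refeeding experiment its group medians lay between 0.455 and 3.97 CPM, but refed Kupffer 3 reached 2082 CPM. Igkc (chr6:70726435-70726966, plus strand) had medians of 11683 CPM in refed and 4018 CPM in fasted colonic libraries, and Jchain (chr5:88519809-88527891, minus strand) had medians of 3963 CPM and 1323 CPM. Over all libraries of both experiments, Igha exceeded 100 CPM in 16 and Jchain in 17. Refed Kupffer 3 was among both (Jchain 356.9 CPM). Those of Jchain also included islet high-fat library 5 (1742 CPM) and islet normal diet library 5 (938 CPM). Genes of the immunoglobulin loci together took a median of 5.11% and at most 22.3% of all counts in refed colonic libraries, and a median of 1.54% and at most 12.2% in fasted ones. Per kilobase of exon, the order of the refed colonic medians was Igkc (21960 CPM per kb), Igha (7514 CPM per kb), Jchain (1574 CPM per kb), Ighm (142.7 CPM per kb), Mzb1 (36.7 CPM per kb), Cd79b (27.9 CPM per kb), Cd79a (19.8 CPM per kb) and Ms4a1 (0 CPM per kb). The ranges of Igkc, Igha and Jchain overlapped one another, and so did those of Mzb1, Cd79a and Cd79b. These 2 sets overlapped as well. The lowest Igkc, Igha and Jchain values (12.2, 1.26 and 0.366 CPM per kb) lay below the highest of Mzb1 (185.2 CPM per kb). Ighm, at 77.9 to 201.8 CPM per kb, overlapped the ranges of Igkc, Igha, Jchain, Mzb1 and Cd79a.

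**Figure D1:**
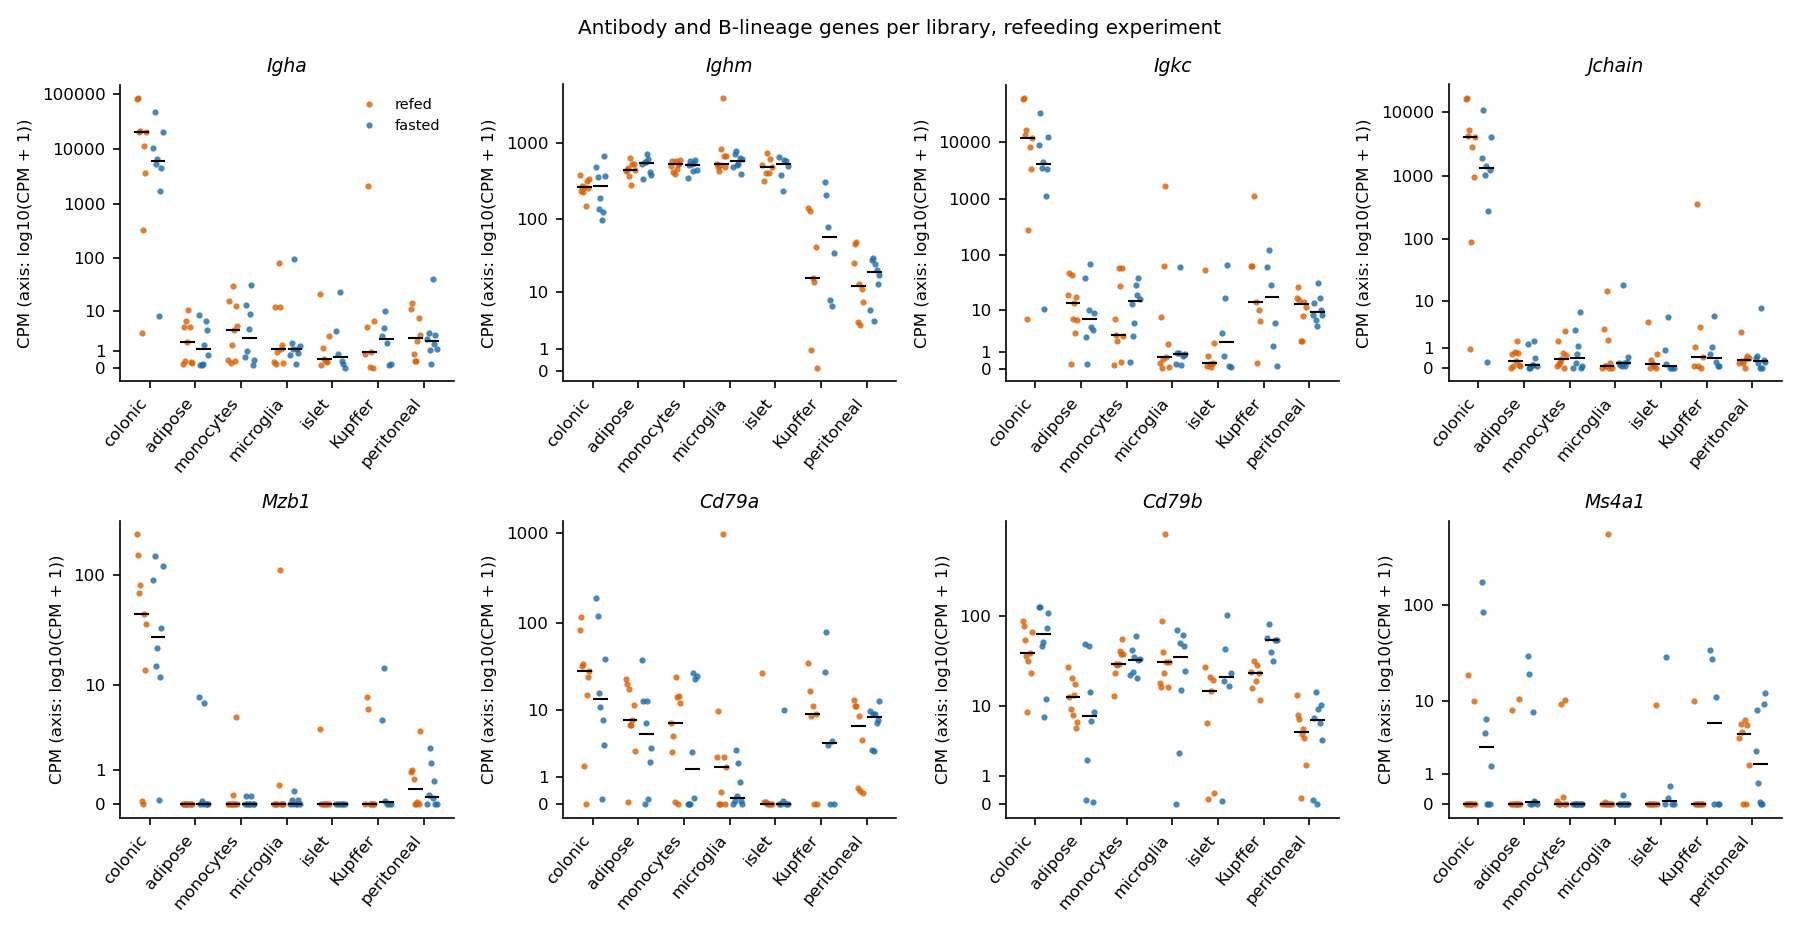
Level of each gene in every library of the refeeding experiment, in CPM on a log10(CPM + 1) axis, with refed libraries in orange left of fasted libraries in blue, 1 point per library and a bar at the group median. Igha, Igkc and Jchain are high in colonic libraries only, apart from single points, while Ighm lies at 238 to 831 CPM in all islet libraries, adipose tissue macrophages, monocytes and microglia except 1 microglia library at 3943 CPM.

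The difference between fasted colonic macrophages and each other fasted population was tested with edgeR's quasi-likelihood test in a joint fit of 16114 genes, with cohort as a term and Benjamini-Hochberg adjustment. Igha, Igkc and Jchain were higher in colonic macrophages than in each of the 6 other populations. The smallest log2 difference was 11.51 for Igha (against microglia, SE 1.89), 8.38 for Igkc (against Kupffer cells, SE 1.84) and 11.53 for Jchain (against microglia, SE 1.84). Over the 6 populations the largest adjusted p was 0.00019 for Igha, 0.00173 for Igkc and 0.000162 for Jchain. Of all genes, 162 (1.01%) were higher in colonic macrophages than in every other population. Mzb1 (chr18:35647267-35649367, minus strand, overlapping the gene annotated as SPATA24 on the same strand) was higher than in 5 of 6 populations, with an adjusted p of 0.0528 against Kupffer cells (log2 difference 6.31, SE 2.13). That difference was called by DESeq2 (adjusted p 0.0026), without the filter on low counts (0.00237) and without 4 fasted libraries described with the V genes (0.0395).

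The B cell receptor genes separated the colon less. Cd79a (chr7:24897381-24902197, plus strand) was called higher by edgeR in fasted colonic macrophages than in microglia (log2 difference 5.39, SE 1.76, adjusted p 0.0199), and Cd79b (chr11:106311341-106314762, minus strand) than in peritoneal macrophages (3.50, SE 1.03, adjusted p 0.00938). Cd79a was also called higher than in islet macrophages by DESeq2 (5.16, adjusted p 0.00472) and by edgeR without the filter (adjusted p 0.00606), and Cd79b than in adipose tissue macrophages without the filter (adjusted p 0.00789). Ms4a1 (chr19:11249675-11266241, minus strand) was called higher than in microglia (8.05, SE 2.42, adjusted p 0.0116) and than in monocytes, where it was listed at 0 counts in all 8 fasted libraries. Fasted colonic libraries 1 and 2, of cohort 1, had 2839 and 1169 counts of Ms4a1, and the others had at most 66. Against peritoneal macrophages edgeR gave Ms4a1 a log2 difference of -0.91 (SE 1.44, adjusted p 0.756). Without the cohort term it was 3.09 (adjusted p 0.29). Ighm (chr12:113418558-113422730, minus strand) was higher than in peritoneal macrophages (4.15, SE 0.50, adjusted p 9.97e-09) and Kupffer cells (1.94, SE 0.52, adjusted p 0.0113), and averaged 306.7 CPM in the colon, against 491.2 to 588.5 CPM in the islet, adipose, monocyte and microglia groups, from which it was not called different, except as lower than in islet macrophages without the filter (-0.82, adjusted p 0.0458). Of all genes, the share called higher in colonic macrophages was 16% against microglia, 14.4% against monocytes, 14.2% against peritoneal macrophages, 7.96% against adipose tissue macrophages, 6.32% against islet macrophages and 5.19% against Kupffer cells.

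Other genes of antibody-secreting cells were higher in the colon as well. Of 17 tested genes of a plasma cell list, 5 were called higher than in adipose tissue macrophages, 8 than in islet macrophages, 5 than in Kupffer cells, 14 than in microglia, 7 than in monocytes and 7 than in peritoneal macrophages, and 0 were called lower. The median log2 difference of the list was between 3.15 and 6.38 over the 6 populations, beside -0.01 to 0.24 for all genes. Ighg2b, the IgG2b constant region, was called in 5 of the 6 comparisons at 33.2 ± 46.7 CPM in fasted colonic libraries (SD, n = 8). Derl3, which removes misfolded proteins from the endoplasmic reticulum, was called in 3 at 34.6 ± 35.3 CPM. Sdc1, the plasma cell surface protein CD138, was called in 4 at 25.3 ± 24.99 CPM. Xbp1 and Txndc5, of the secretory pathway, were called in 3 each, with the macrophages of other tissues reaching group means of 654 CPM and 164.5 CPM. Pigr, the receptor that carries polymeric IgA across the gut epithelium, was higher than in all 6 populations (198.0 ± 208.6 CPM, smallest log2 difference 3.86, largest adjusted p 0.0395), and the gut epithelium list had 4 to 7 of 7 tested genes called higher. Of 22 tested B cell list genes, between 0 (Kupffer cells) and 13 (microglia) were called higher.

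Refeeding gave no called difference in these genes in the colon. Igha had 83247, 85761, 20048, 21351, 3.35, 334.7, 11225, 3676 and 20790.3 CPM in refed colonic libraries 1 to 9, against 10368.5, 48257, 5373.5, 6558, 7.96, 1696, 4541 and 20553 CPM in fasted colonic libraries 1 to 8. The groups overlapped over almost their whole range, and the lowest values of both groups came from the same cohort. The log2 difference (refed minus fasted) was 0.32 with an SE of 1.03 for Igha, 0.40 (SE 0.89) for Igkc and 0.45 (SE 1.01) for Jchain, all with an edgeR adjusted p of 1. Mzb1 averaged 68.7 ± 75.2 CPM in refed and 54.8 ± 55.7 CPM in fasted libraries (SD, n = 9 and 8), with a fitted log2 difference of -0.57 (SE 0.94) that runs against the means. Cd79a (-0.24, SE 0.68), Cd79b (-0.23, SE 0.32) and Ighm (0.04, SE 0.23) differed by less than their errors. The sign of all but Cd79b among these 4 turned without cohort 3, to 0.36 for Mzb1, 0.27 for Cd79a and -0.18 for Ighm. None of the 7 members that passed the filter on low counts was called, and DESeq2 called 0 as well. Of all 11856 genes tested, 0 were called (0%), with 309 (2.61%) at an unadjusted p below 0.05. The standard errors of Igha, Igkc, Jchain and Mzb1 were 0.89 to 1.03 on the log2 scale, so a 2-fold change of these genes was not detectable with these libraries.

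Ms4a1 did not pass that filter. It had 173.4 and 85.8 CPM in the fasted libraries of cohort 1 and 0 CPM in both refed libraries of that cohort. In the other cohorts it stayed at or below 19.3 CPM in refed and 6.26 CPM in fasted libraries, and 7 of 9 refed libraries had 0 counts, against 3 of 8 fasted ones. Of the plasma cell list, 14 of 17 tested genes had a positive refed minus fasted difference (median log2 0.25, beside -0.01 for all genes), with 0 called. The pancreatic acinar list ran the other way, with 0 of 11 positive and a median log2 of -1.997, again with 0 called.

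The level of IgA RNA differed by cohort. In cohort 1 the 4 colonic libraries had 10368.5 to 85761 CPM of Igha, in cohort 2 the 4 had 5373.5 to 21351 CPM, in cohort 4 the 5 had 3676 to 20790.3 CPM, and in cohort 3 the 4 had 3.35 to 1696 CPM. Within cohort 2 both refed libraries lay above both fasted ones, and within cohort 1 as well, whereas the groups overlapped in cohorts 3 and 4. Ighm was also lowest in cohort 3 by median, at 136.1 CPM, against 372.6, 207.9 and 335.2 CPM in cohorts 1, 2 and 4, with a far smaller spread between cohorts than Igha. In cohort 3 it had 269.1 and 146.9 CPM in refed libraries 5 and 6 and 97.31 and 125.4 CPM in fasted libraries 5 and 6. The medians of Cd79a (0.898 CPM) and Cd79b (10.52 CPM) were lowest in cohort 3 as well.

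**Figure D2:**
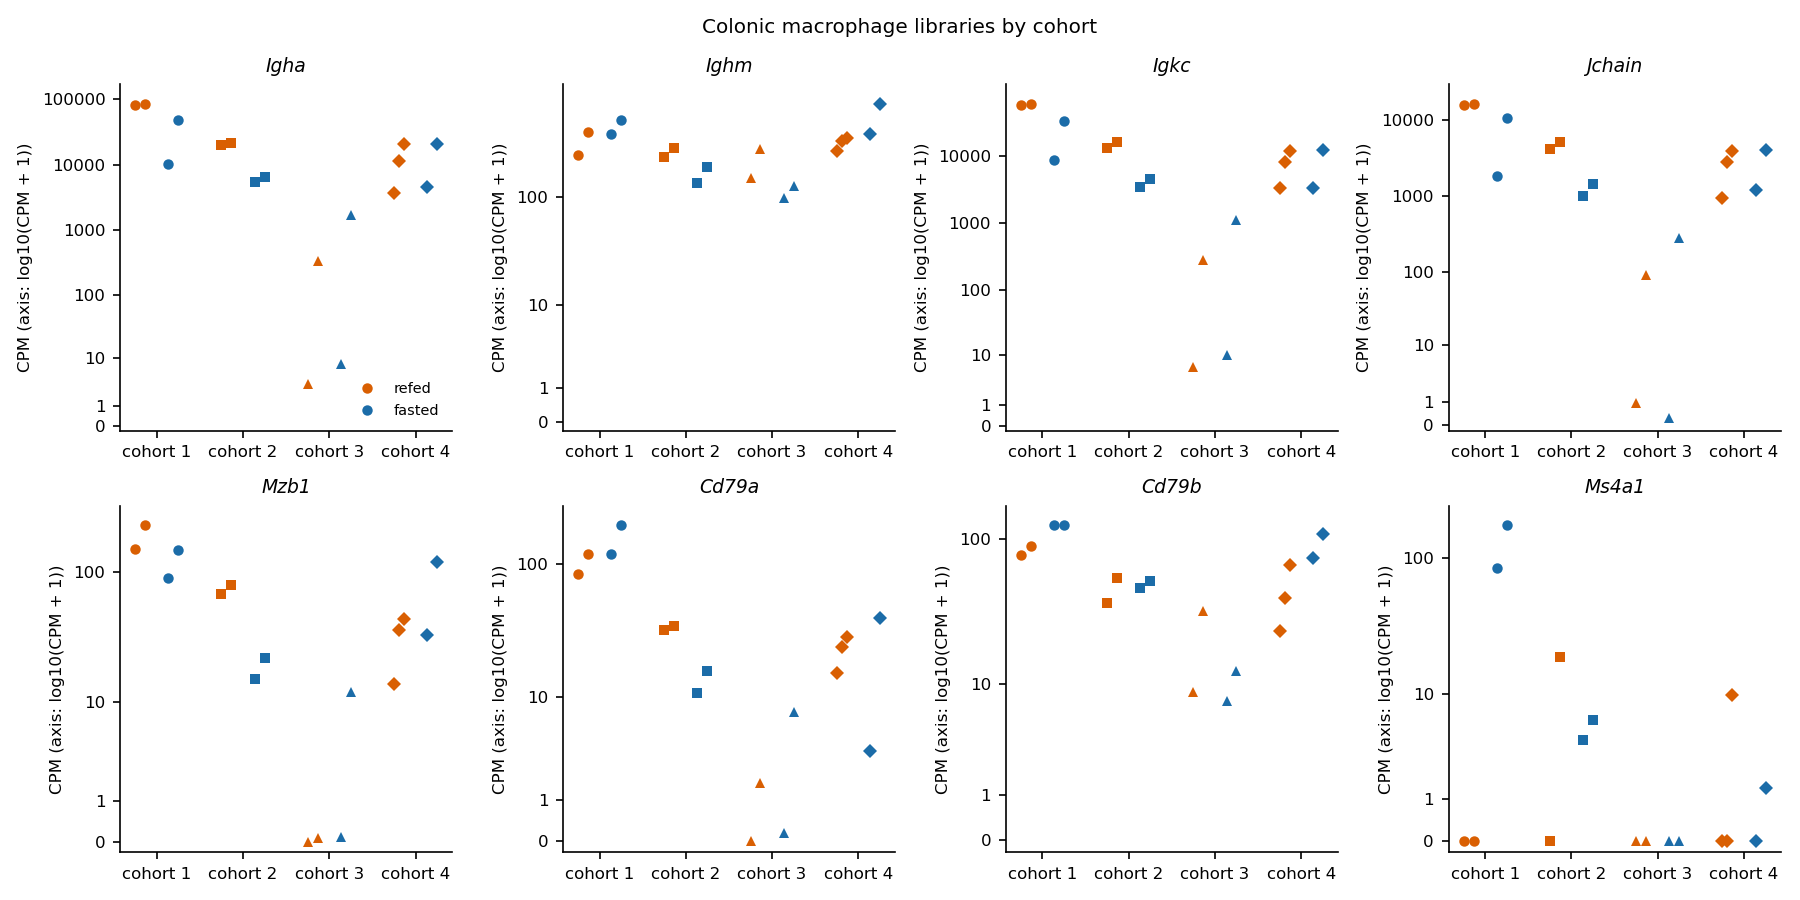
Level of each gene in the 17 colonic macrophage libraries by cohort, in CPM on a log10(CPM + 1) axis, refed libraries in orange left of fasted libraries in blue. By median, Igha, Igkc, Jchain and Mzb1 are far lower in cohort 3 than in the others, and Ighm is lowest there too but by less. For Mzb1 a single library of cohort 3 lies near the lowest of the others, and for Ighm the cohorts overlap. Ms4a1 is above 20 CPM in the 2 fasted libraries of cohort 1 alone.

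The plasma cell genes kept similar proportions from library to library. Over the 17 colonic libraries on a log2(CPM + 1) scale, Igha and Igkc had a Pearson r of 0.999 (Spearman rho 0.988), Igha and Jchain 0.996 (rho 0.985) and Igkc and Jchain 0.997 (rho 0.993). Each had a permutation p of 1e-05, the smallest that 100000 resamples can give, and an adjusted p of 4.67e-05 over all 28 member pairs. Without the 2 libraries farthest from the median these r were 0.997, 0.995 and 0.995, and with values centred within cohort 0.997, 0.985 and 0.99. Because cohort 3 stood apart, the same pairs were computed over the 13 libraries of the other cohorts, where r was 0.993, 0.992 and 0.99. For 100 Igha counts there was a median of 20.2 Jchain counts and 69.1 Igkc counts. Mzb1 followed Igha (r 0.933, rho 0.934, adjusted p 4.67e-05, within cohort 0.725), Cd79a less closely (r 0.828, rho 0.841, adjusted p 0.000153, within cohort 0.386). Neither Ms4a1 (r 0.28, rho 0.121, adjusted p 0.287) nor Ighm (r 0.471, rho 0.449, adjusted p 0.0736, within cohort -0.23) was called with Igha. By Pearson's r, 18 of the 28 pairs had an adjusted p below 0.05, and 11 did without cohort 3. Relations of Cd79b with Igha, Igkc and Jchain (r 0.843 to 0.847) rested on that cohort, with r between 0.467 and 0.517 without it.

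Genes outside the immunoglobulin loci that ran most closely with Jchain over the same 17 libraries, among 10172 genes, were Trp53inp1 (Spearman rho 0.917), Xbp1 (0.895), Lax1 (0.883), Pou2af1 (0.877) and Txndc5 (0.868). Xbp1 is the transcription factor of the plasma cell secretory programme, and Pou2af1 a coactivator of immunoglobulin promoters. Those closest to Cd79a were Pou2af1 (0.941), Ly6d (0.911), Xbp1 (0.897), Mbip (0.877) and Gimap3 (0.876). These are descriptions over libraries that share cohorts and carry no p.

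Of the counts on heavy chain constant regions, Igha held a median of 97.2% over the 17 colonic libraries. In some libraries nearly all V counts came from 1 gene of each chain. In fasted library 7, Ighv1-34 took 99.5% of 37450 heavy chain V counts (95% Wilson interval 99.5 to 99.6%) and Igkv4-90 took 99.3% of 45166 kappa V counts (99.2 to 99.4%). Fasted library 6 read Ighv1-55 (99.7%, interval 99.5 to 99.8%) with Igkv10-96 (97.7%, 97.3 to 97.9%), and refed library 6 read Ighv3-6 (97.7%, 96.8 to 98.3%) with Igkv8-30 (97.8%, 97.1 to 98.3%). In these 3 libraries each chain came almost wholly from a single V gene. Refed library 1 lay at the other end, with 20 heavy chain V genes above 1% of the V counts and Ighv1-26 leading at 18.4% (18.3 to 18.5%). Intervals cover counting error only, since Smart-seq2 reads carry no molecular identifiers, and reads of closely related V genes may have been assigned to a neighbour.

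**Figure D3:**
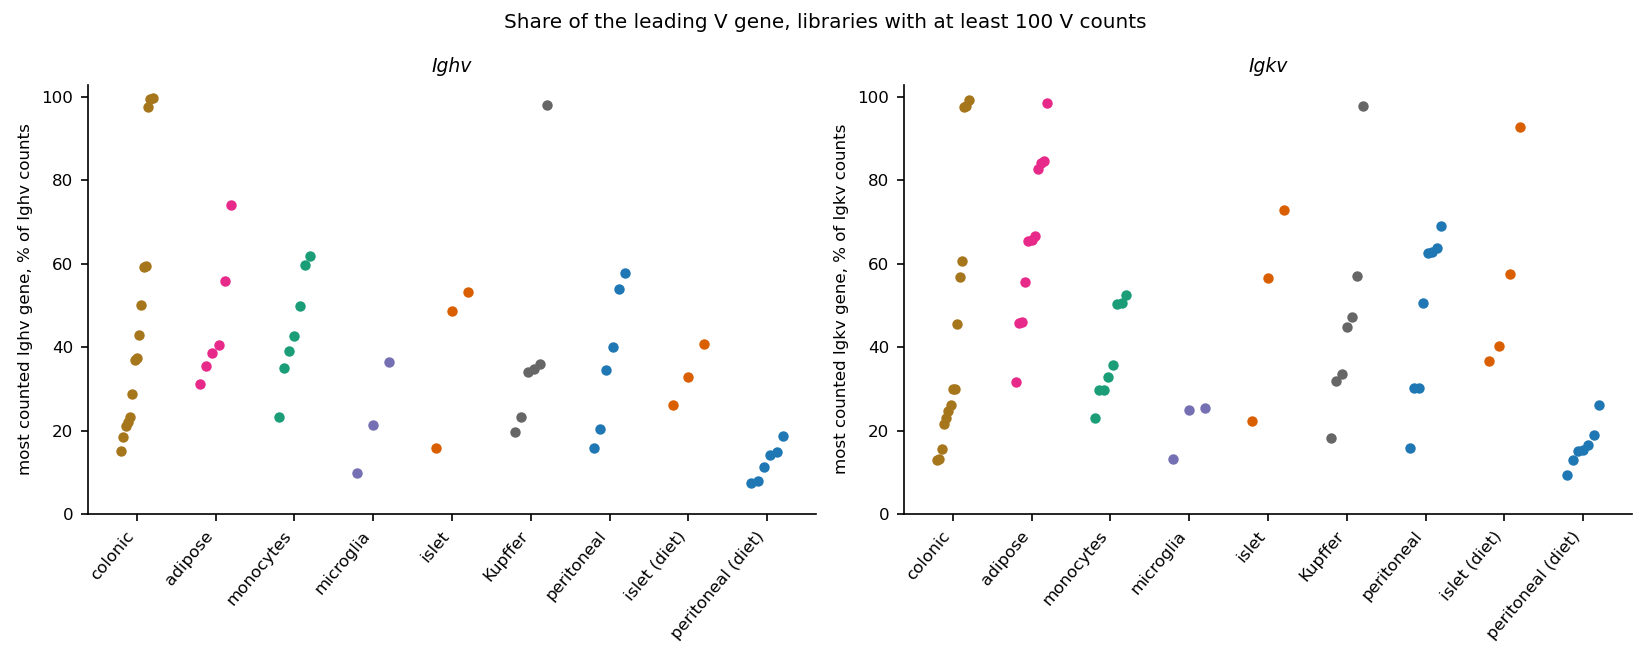
Share of all heavy chain V (left) and kappa V (right) counts taken by the most counted V gene, in percent, 1 point per library with at least 100 such counts, by population and experiment. Most colonic libraries lie below 60%, 3 lie above 97% for both chains together with 1 Kupffer library, and the diet peritoneal libraries lie below 30%.

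V genes also linked libraries to each other. The overlap of 2 libraries was the sum, over V genes, of the smaller of their 2 shares, computed for the 53 libraries with enough V counts. Among all pairs of colonic libraries so covered the lower of the heavy and kappa overlaps was at most 39.2%, whereas pairs of diet peritoneal libraries reached 70.9%. Fasted microglia 4 overlapped refed colonic 3 by 93.9% for heavy and 96.7% for kappa V genes, and fasted monocytes 6 overlapped fasted colonic 8 by 92.7% and 94.6%. Fasted islet 4 and fasted peritoneal 5 both overlapped refed colonic 2, by 80.9% and 87.5% and by 80.5% and 89.6%. Refed microglia 5 shared 57.7% and 88.9% with fasted colonic 8, within the range of the peritoneal pairs for the heavy chain. Of these 5 pairs, 4 join a refed with a fasted library, and 4 join different cohorts. In all 5 libraries Igha stood at 23.5 to 96.8 CPM. Fasted microglia 4 had 0.483% of the colonic library's Igha CPM, 0.467% of its Igkc and 0.438% of its Jchain, and fasted monocytes 6 had 0.151%, 0.151% and 0.161%. Summed pancreatic acinar genes stood at 0.482% and 0.173% of the colonic level in these 2 libraries, but at 2.88% in refed microglia 5, 38.4% in fasted peritoneal 5 and 2423.1% in fasted islet 4, where Igha stood at 0.397%, 0.0476% and 0.0274%. Summed gut epithelium genes stood at 3.03% in fasted microglia 4, 1.34% in fasted monocytes 6, 1.92% in refed microglia 5, 0.0771% in fasted peritoneal 5 and 0.0253% in fasted islet 4. The source of this shared RNA was not tested. Without the 4 fasted ones of these libraries, Igha, Igkc and Jchain were again called higher in colonic macrophages than in all 6 populations.

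IgM RNA followed another pattern. Ighm was counted in every library of both experiments and exceeded 100 CPM in 110. Its medians were 530.8 CPM in refed and 578.2 CPM in fasted microglia, 533.1 and 523.5 CPM in monocytes, 492.4 and 535.7 CPM in islet macrophages and 445.9 and 548.9 CPM in adipose tissue macrophages. It stood at 15.7 and 57.4 CPM in Kupffer cells and at 12.3 and 19.1 CPM in peritoneal macrophages. Igkc stayed low beside high Ighm in most microglia and islet libraries, but in fewer of the monocyte and adipose ones. Ighm was above 100 CPM with Igkc below 5 CPM in 13 of 17 microglia libraries, 10 of 13 islet, 7 of 17 monocyte and 6 of 17 adipose libraries, and in 0 of 17 colonic ones. The diet experiment gave the same for microglia made from 5000 cells, in 12 of 12 libraries. There Ighm had medians of 472.3 CPM with high-fat diet and STZ, 499.0 CPM with high-fat diet and 521.2 CPM with normal diet, while Igkc stayed at or below 0.679 CPM.

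Few V region reads accompanied these transcripts in microglia. In the 12 diet microglia libraries there were at most 0.0725 heavy chain V counts for 100 Ighm counts, with a median of 0, while the J segments printed above had 1.13 to 2.81 counts for 100 Ighm counts. In the diet peritoneal libraries there were 16.95 to 22.1 V counts for 100 Ighm counts on normal diet. In the colon, where V counts also come from Igha, the medians were 2895.5 V counts for 100 Ighm counts in refed and 1210.4 in fasted libraries. Cd79b resembled Ighm in part, as it was often counted without its partner in microglia. It was above 10 CPM with Cd79a below 1 CPM in 12 of 12 diet and 9 of 17 refeeding microglia libraries. The same held in 7 of 13 refeeding and 4 of 11 diet islet libraries, 6 of 17 monocyte, 4 of 13 Kupffer and 0 of 17 adipose libraries. Unlike Ighm, Cd79b was above 10 CPM in all 13 Kupffer libraries and in only 8 of 17 adipose ones. Its median in microglia was 31.5 CPM in refed and 36.4 CPM in fasted libraries, where Cd79a had medians of 1.58 CPM and 0.156 CPM. Ms4a1 was at 0 counts in 12 of 12 diet microglia libraries.

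**Figure D4:**
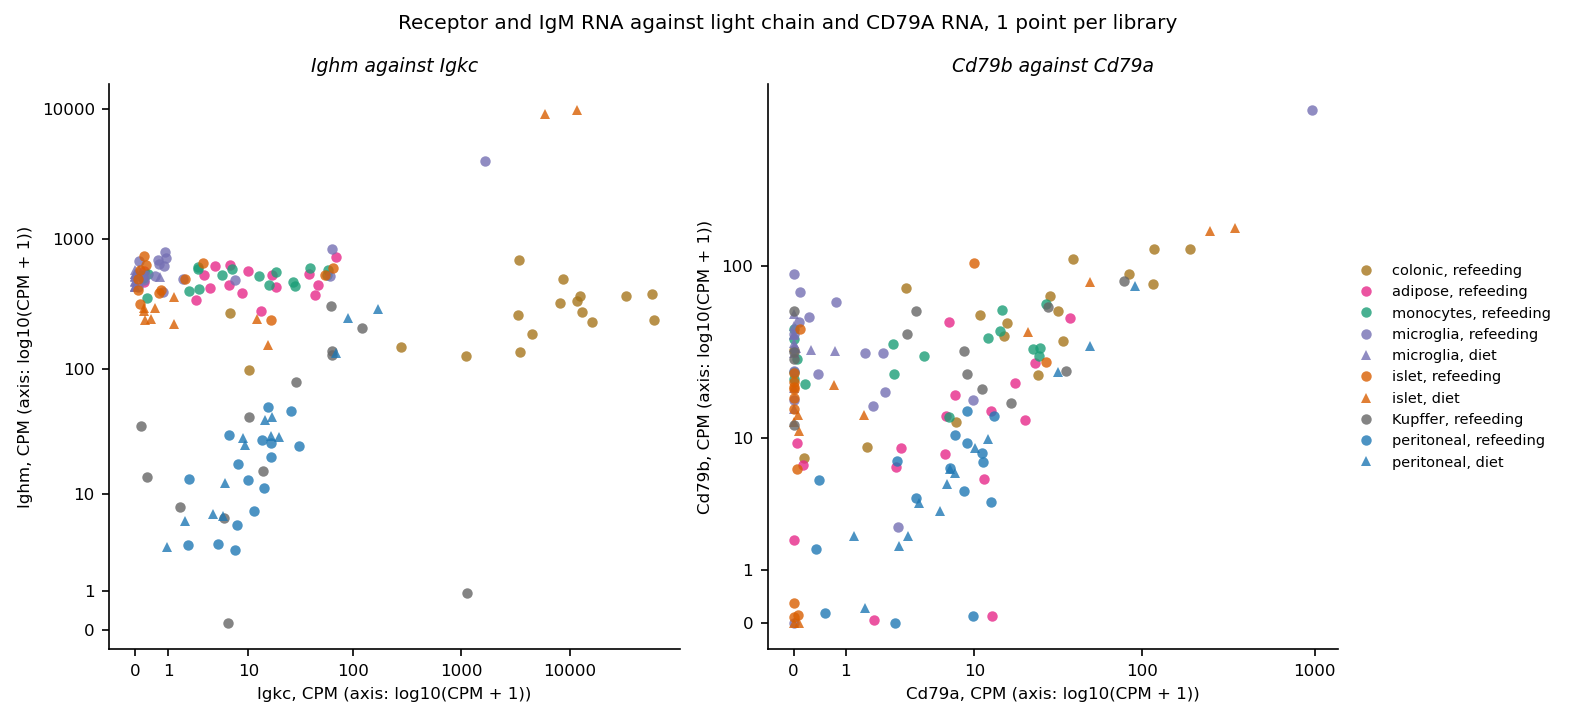
Ighm against Igkc (left) and Cd79b against Cd79a (right) in all libraries of both experiments, CPM on log10(CPM + 1) axes, coloured by population, with circles for the refeeding and triangles for the diet experiment. Microglia, islet, monocyte and adipose libraries form a band of high Ighm that spans Igkc from 0 upwards, whereas peritoneal and Kupffer libraries lie lower.

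Single libraries outside the colon stood far above the rest of their group. Refed microglia 6 had 3943 CPM of Ighm, 1665 CPM of Igkc, 965.5 CPM of Cd79a, 749.1 CPM of Cd79b, 523.7 CPM of Ms4a1 and 110.2 CPM of Mzb1, and 1.71 CPM of Jchain. In the other 8 refed microglia libraries Ighm did not exceed 831 CPM. Its V genes were diverse, with 23 heavy chain V genes above 1% and Ighv9-3 leading at 9.95% (interval 9.33 to 10.6%), and B cell factor Pax5 had 157.8 CPM. Refed Kupffer 3 was its opposite, with 2082 CPM of Igha, 1132 CPM of Igkc and 356.9 CPM of Jchain but 0.913 CPM of Ighm and 0 CPM of Ms4a1. There Ighv1-81 took 98.1% (97.9 to 98.3%) of heavy and Igkv10-96 97.8% (97.5 to 98%) of kappa V counts. The microglia library thus held B cell transcripts and the Kupffer library plasma cell transcripts with a single pair of V genes. Both also held markers of their own population, with 7294.5 CPM summed over 3 microglia genes and 15994 CPM summed over 3 Kupffer genes. The sums of the other libraries are not given here. Refed islet 1_2 read the B-1 pair of Ighv12-3 (53.2%, 48.7 to 57.6%) and Igkv4-91 (73%, 69.9 to 75.9%), with 21.6 CPM of Igha and 54.8 CPM of Igkc.

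Outside the colon refeeding gave no called difference in these genes either. edgeR called 0 members in each of the 6 populations, among 4 to 6 tested members, and DESeq2 called 0 as well. All-gene calls were 0 (0%) in 5 of them and 49 of 11331 genes (0.432%) in peritoneal macrophages, 0.327% as higher and 0.106% as lower in refed mice. The share of genes with an unadjusted p below 0.05 was 5.16% in adipose tissue macrophages, 2.65% in monocytes, 2.52% in microglia, 2.39% in islet macrophages, 3.27% in Kupffer cells and 11% in peritoneal macrophages. The only member with an unadjusted p below 0.05 was Cd79b in Kupffer cells. It had 24.8, 16.2, 32.4, 19.5, 29.1, 24.04 and 11.96 CPM in refed Kupffer libraries, against 58.2, 81.8, 40.8, 32.2, 55.2 and 55.1 CPM in fasted ones. A single fasted library lay within the refed range. The log2 difference was -1.22 (SE 0.38), with an unadjusted p of 0.00587 and an adjusted p of 1, so it did not pass. Igha in Kupffer cells had a log2 difference of 3.75 (SE 2.13, adjusted p 1), which rested on refed library 3, and it was called only when genes with low counts were left in the fit (adjusted p 2.14e-11). In microglia the mean of Igkc was 193.3 CPM in refed and 8.21 CPM in fasted libraries, a difference carried by refed library 6, and the fit gave a log2 difference of 1.18 (SE 2.06, adjusted p 1).

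In peritoneal macrophages of the diet experiment, the lowest group medians of Ighm, Igkc, Cd79a, Cd79b and Ms4a1 were those of high-fat diet with STZ. Ighm had 28.9, 246.9, 5.82, 6.74 and 3.36 CPM in cohorts 1 to 5 with high-fat diet and STZ, 29.8, 131.8, 6.47 and 40.2 CPM in cohorts 1, 2, 4 and 5 with high-fat diet, and 42.4, 288.4, 29.04, 12.4 and 25.5 CPM in cohorts 1 to 5 with normal diet. Within each of the 5 cohorts the STZ library lay below the normal diet library, although the groups overlapped, because all 3 libraries of cohort 2 were high. The same held in 5 of 5 cohorts for Igkc, Cd79a, Cd79b and Ms4a1, and in 4 of 5 for Mzb1.

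With cohort as a block, the log2 difference of STZ minus normal diet was -1.25 (SE 0.51, adjusted p 0.21) for Ighm, -1.64 (SE 0.54, adjusted p 0.141) for Igkc, -1.48 (SE 0.44, adjusted p 0.113) for Cd79a, -1.86 (SE 0.53, adjusted p 0.102) for Cd79b, -2.003 (SE 0.63, adjusted p 0.128) for Ms4a1 and -1.94 (SE 0.69, adjusted p 0.167) for Mzb1 by edgeR. None of the 7 tested members passed over all genes by edgeR, although 6 had an unadjusted p below 0.05, as did 19.6% of all genes. DESeq2 called 3 of them, Cd79a (log2 difference -1.51, adjusted p 0.00678), Mzb1 (-2.15, adjusted p 0.0435) and Cd79b (-1.92, adjusted p 0.0469), beside 954 of all genes. Of 13225 genes, 171 (1.29%) were called, 0.665% of all genes as higher and 0.628% as lower with STZ. That count depended on single libraries, falling to 0.228% of genes without STZ library 4 and rising without STZ library 2. Igha had a log2 difference of 0.05 (SE 0.97), and its libraries held 0 to 0.81 CPM. Jchain did not pass the filter on low counts. High-fat diet minus normal diet gave negative differences for all 7 tested members, each with an adjusted p of 0.989, 0 genes of 13225 (0%) were called, and 3.54% of genes had an unadjusted p below 0.05. STZ minus high-fat diet called 0 members by edgeR and 0 by DESeq2, with Igkc and 8.08% of all genes at an unadjusted p below 0.05 (Igkc log2 difference -1.29, SE 0.57, adjusted p 0.583).

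**Figure D5:**
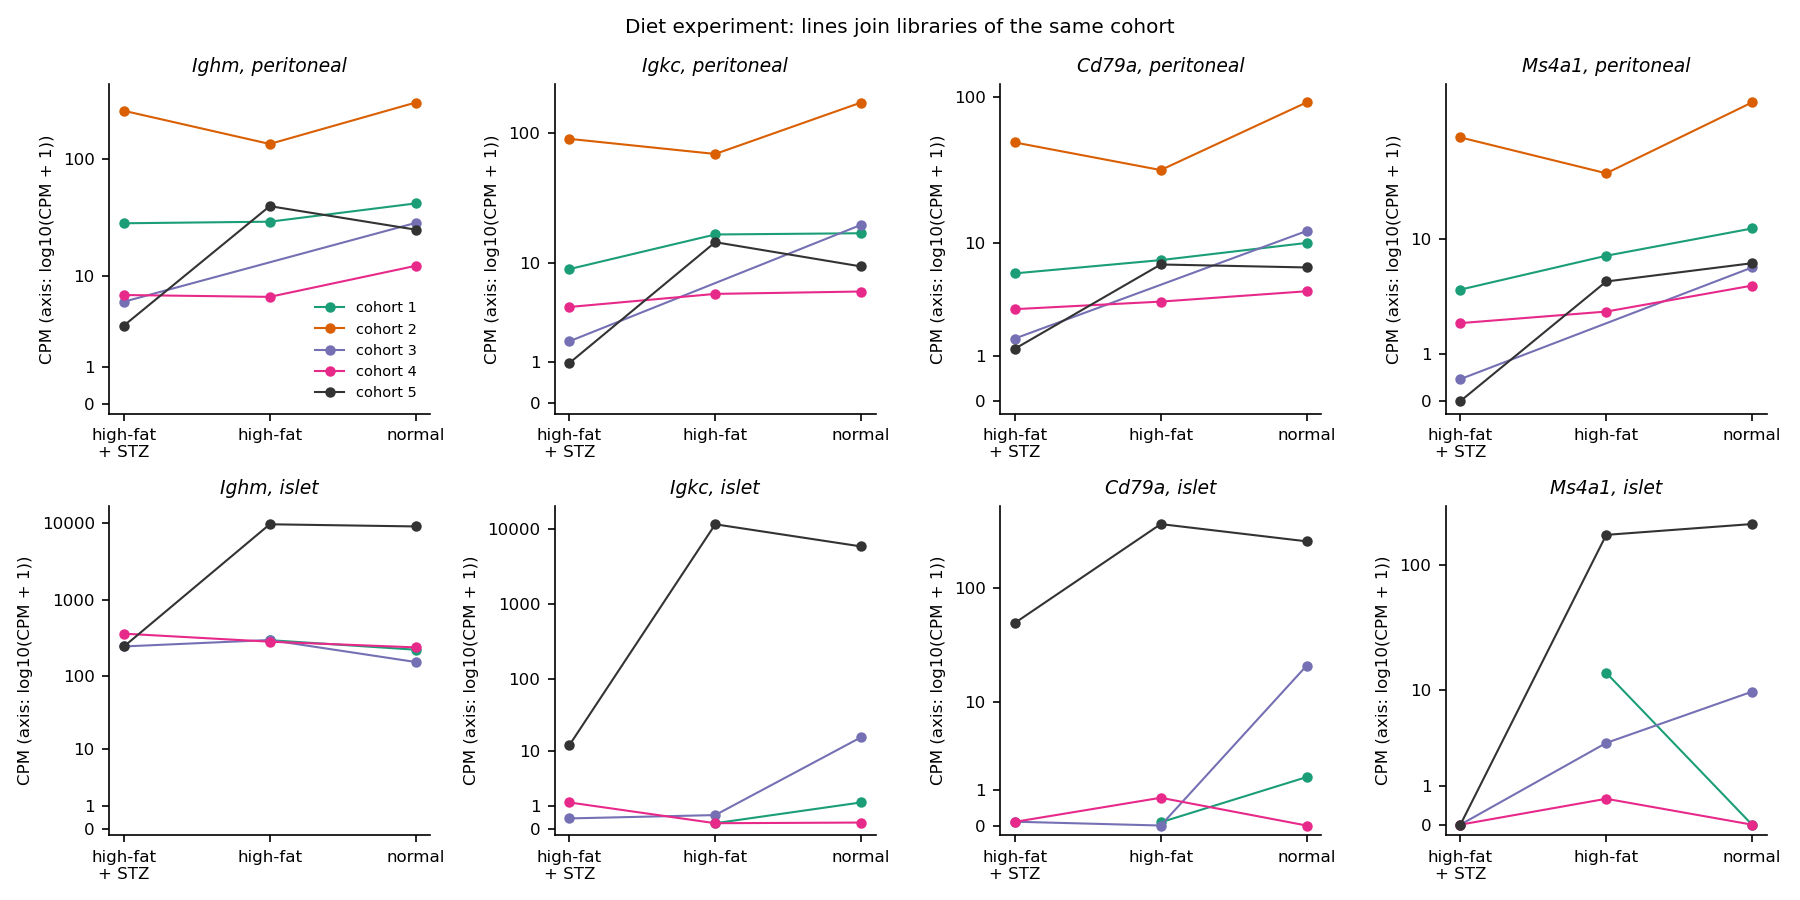
Ighm, Igkc, Cd79a and Ms4a1 in peritoneal (upper row) and islet (lower row) macrophages of the diet experiment, CPM on a log10(CPM + 1) axis, from high-fat diet with STZ at the left to normal diet at the right, with lines joining libraries of a cohort. Peritoneal cohort 2 lies above the other cohorts in every diet, and islet cohort 5 rises above the others with high-fat and normal diet.

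Other B cell genes and genes of peritoneal macrophages were read in the same comparison. Of 21 tested B cell list genes 2 had a positive STZ minus normal difference, with a median log2 of -1.35 beside -0.01 for all genes, and 0 were called. Cd22, an inhibitory B cell lectin, averaged 2.77 ± 5.18 CPM with STZ and 6.41 ± 10.54 CPM with normal diet (log2 difference -1.46, SE 0.63, adjusted p 0.231). Aldh1a2, which makes retinoic acid, fell to 16.8 ± 6.99 CPM with STZ, against 45.6 ± 9.07 CPM with normal diet (-1.67, SE 0.25, adjusted p 0.00972). Gata6, the transcription factor of peritoneal macrophages, fell to 12.8 ± 6.02 CPM, against 28.8 ± 1.95 CPM (-1.42, SE 0.30, adjusted p 0.0419). Fcgr2b, the inhibitory Fc gamma receptor of macrophages and B cells, rose to 758.8 ± 51.3 CPM, against 386.6 ± 75.3 CPM (0.82, SE 0.18, adjusted p 0.045). Fkbp11, a chaperone of the endoplasmic reticulum, fell as well (-1.25, SE 0.27, adjusted p 0.0419). Whether the calls of Aldh1a2, Gata6, Fcgr2b and Fkbp11 held with single libraries left out was not examined. Cxcl13, a chemokine that draws B-1 cells to the body cavities, averaged 172.2 ± 252.9 CPM with STZ and 886.0 ± 591.7 CPM with normal diet (-3.32, SE 1.11, adjusted p 0.148) and did not pass.

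The diet peritoneal libraries with enough V counts read many V genes. At least 100 counts of both chains were reached only in cohort 2, in high-fat library 5, and in normal diet and high-fat libraries 1. For the libraries of cohort 1 the leading V genes are not given here. Ighv11-2 led the heavy chain in all 3 libraries of cohort 2, with 18.6% (interval 15.4 to 22.4%) with STZ, 14.8% (11.7 to 18.6%) with high-fat diet and 7.49% (5.89 to 9.48%) with normal diet. Its partner Igkv14-126 led the kappa chain there with 26.1% (23.2 to 29.2%), 18.9% (16.3 to 21.9%) and 12.99% (11.5 to 14.7%). Both led in high-fat library 5 too, at 14.2% (8.91 to 21.8%) and 15.3% (10.49 to 21.7%). In the colon Ighv11-2 took at most 0.117% of the V counts. Over the 14 diet peritoneal libraries and 9397 genes, genes close to Cd79a included Ly6d (rho 0.965), a B cell surface protein, Gimap3 (0.921), Cyp4f18 (0.908) and Napsa (0.873).

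In islet macrophages of the diet experiment the high levels came from a single cohort. Ighm had 243.8, 358.8 and 243.5 CPM with high-fat diet and STZ (cohorts 3, 4 and 5), 294.8, 296.3, 281.5 and 9733 CPM with high-fat diet (cohorts 1, 3, 4 and 5), and 221.0, 152.2, 237.0 and 9120.1 CPM with normal diet (cohorts 1, 3, 4 and 5). Igkc reached 11595.5 CPM in high-fat library 5 and 5874 CPM in normal diet library 5, against 12.2 CPM in STZ library 5. Jchain was at 1742 CPM and 938 CPM in the first pair and did not exceed 0.223 CPM in any other islet library of the experiment. Both libraries also had Ms4a1 (171.3 and 207.9 CPM), Cd79a (346.4 and 247.6 CPM) and Mzb1 (91.3 and 134.9 CPM), so B cell and antibody-secreting transcripts came together. Their V genes differed. High-fat library 5 read Ighv11-2 (40.8%, 40.2 to 41.4%) and Igkv14-126 (40.2%, 39.9 to 40.5%), and normal diet library 5 read Ighv8-12 (26.1%, 25.7 to 26.6%) and Igkv3-2 (36.7%, 36.2 to 37.1%).

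The islet tests called 0 of 6 tested members in each of the 3 diet comparisons by edgeR and by DESeq2. At an unadjusted p below 0.05 edgeR had Cd79a and Ms4a1 for STZ minus normal diet and Ms4a1 for STZ minus high-fat diet. The share of genes called was 0.0242% (3 of 12406) for STZ minus normal diet, and 0% for each of the others. Unadjusted p-values below 0.05 covered 5.68% of genes for STZ minus normal diet, 2.36% for high-fat minus normal diet and 4.97% for STZ minus high-fat diet. Ighm differed by -0.42 (SE 0.92, adjusted p 1) for STZ minus normal diet and by 0.36 (SE 0.73, adjusted p 1) for high-fat minus normal diet. Cd79a had a log2 difference of -4.85 (SE 2.03, adjusted p 0.869) for STZ minus normal diet. Ms4a1 was at 0 counts in all 3 STZ libraries, against 0 to 207.9 CPM with normal diet, so its fitted difference is no estimate of size. Jchain and Mzb1 did not pass the filter. Diet contrasts of microglia were not tested for any member. Igha, Igkc, Jchain and Mzb1 had group medians of 0 to 0.0283 CPM there, whereas Ighm exceeded 100 CPM and Cd79b 10 CPM in all 12 libraries.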

How the data were processed

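RNA of sorted cells was extracted with PicoPure kits and made into Smart-seq2 libraries, per the labels' protocols. The authors deposited whole-number counts per gene in 2 tables on mm10, made with STAR 2.5.1a, Trimmomatic 0.36 and featureCounts per the submitters' processing notes; the strand setting is not given in the sources used here. All 147 count columns were mapped to samples by title, with 0 columns not used. Of 50686 identifiers 50376 matched a symbol, and those without one held 0.0438% of the counts. None of 443 pairs of libraries of the same group were identical. Nothing in the labels says which libraries share a mouse, so p-values measure the spread between these libraries.

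The members and the 14 other gene lists were chosen with earlier results of these data known. Levels are CPM over all counts. Tests used edgeR 4.0.16 in R 4.3.3 (quasi-likelihood, filterByExpr, TMM, Benjamini-Hochberg adjustment over all tested genes, threshold 0.05), with cohort as a term for refeeding and for the joint fit of the 7 fasted populations, and with the replicate number, which marks the cohort, as a block for diet. DESeq2 1.42.0, other scalings and filters and left-out libraries were alternatives. Over the diet peritoneal libraries, same-numbered libraries deviated together in 9 of 13 pairs (correlation over 0.1), and in the refeeding experiment in 0 to 2 pairs per population. Some of the fits were run on simulated data with the same spread for every gene. That spread was smaller than that of Igha between colonic libraries, so the simulation does not show how well changes of such genes are detected. Python 3.11.15 with scipy 1.17.1 computed relations by permutation, on log2(CPM + 1). V gene shares needed 100 counts. The genes named besides the members come from those of the lists with called differences, at most 4 per list and comparison by smallest p, and the 5 genes most like Jchain or Cd79a, of which 1 is not reported here; Pax5, and Cd22 and Cxcl13 for diet, were chosen after their values were seen, as were single libraries and their V genes.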

Additional observations from a re-analysis of the deposited data

Results flagged for a closer look

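A gene was examined in a group of 4 to 10 libraries where its highest library reached 10 CPM, which gave 122 cases, and in 29 a library lay far from all others. Chance picks about 5% of cases under this criterion, but that rate does not apply here, since a case could qualify through its single high library. High values are favoured for the same reason. Fasted microglia 4 stood out for Igha (96.8 CPM), Igkc (61.2 CPM) and Jchain (18.2 CPM), and refed microglia 5 for Jchain (14.5 CPM). Refed microglia 6 stood out for the B cell genes, with Ighm at 3943 CPM, Mzb1 at 110.2 CPM, Cd79a at 965.5 CPM, Cd79b at 749.1 CPM and Ms4a1 at 523.7 CPM. Refed Kupffer 3 stood out for Igha (2082 CPM) and Jchain (356.9 CPM), refed Kupffer 1 for Ms4a1 (10.04 CPM), and fasted peritoneal 5 for Igha (40.8 CPM).

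Refed islet 1_2 stood out for Igha (21.6 CPM), Igkc (54.8 CPM) and Cd79a (27.5 CPM), and fasted islet 3 for Ms4a1 (29.3 CPM). In the diet experiment, islet high-fat library 5 stood out for Ighm (9733 CPM), Igkc (11595.5 CPM), Jchain (1742 CPM), Mzb1 (91.3 CPM) and Cd79a (346.4 CPM), and islet normal diet library 5 for Ighm (9120.1 CPM), Jchain (938 CPM) and Mzb1 (134.9 CPM). Peritoneal normal diet library 2 stood out for Mzb1 (13.8 CPM). The exception in direction was fasted colonic 5, far below the other fasted colonic libraries for Igha (7.96 CPM), Igkc (10.2 CPM) and Jchain (0.228 CPM). What sets these libraries apart was not tested.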

How the results depend on the processing

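No called difference changed sign, but 62 of 1429 single-gene values, all uncalled, did; among them were Mzb1, Cd79a and Ighm for refeeding in the colon. The count of members called for refeeding and diet moved by over 1.5 times in 4 cases: for STZ minus normal diet in peritoneal macrophages DESeq2 called 3 and edgeR without the filter on low counts 1 (Mzb1), against 0, and without that filter 1 member each was called for refeeding in Kupffer cells (Igha) and in microglia (1 of those tested there alone). Between fasted colonic and other macrophages, DESeq2 added Mzb1 against Kupffer cells (adjusted p 0.0026) and Cd79a against islet macrophages (0.00472), and edgeR without the filter added these (0.00237 and 0.00606), Cd79b against adipose tissue macrophages (0.00789) and Ighm against islet macrophages (0.0458). The share of all genes called moved as well. With DESeq2, refeeding called 0.295% of genes in colonic macrophages, 1.03% in adipose tissue macrophages, 0.0666% in monocytes, 0.374% in microglia, 0.437% in islet macrophages, 0.602% in Kupffer cells and 2.99% in peritoneal macrophages; without the filter these were 0.562%, 0.411%, 0.0264%, 0.0537%, 0.0376%, 0.162% and 1.32%. With DESeq2, islet high-fat minus normal diet called 1.8%, STZ minus normal diet 4.79% and STZ minus high-fat diet 3.01% of genes; in peritoneal macrophages these were 0.181%, 7.21% and 1.53%, and 0.083%, 2.68% and 0.626% without the filter. Colonic minus islet macrophages called 16% with DESeq2 against 8.94%, and 5.66% without the 4 fasted libraries whose V genes matched a colonic library. Peritoneal STZ minus high-fat diet called 0.0605% with RLE size factors and 0.113% without cohort 2. Islet STZ minus normal diet (0.0242%) came to 0% with immunoglobulin genes left out of the library size and 0.00773% without cohort 5. Of 28 member relations in the colon, 11 were called without cohort 3 against 18. Alternatives named for single libraries or cohorts, apart from leaving out each replicate in turn, were chosen after seeing the data. The cause of these shifts was not tested.

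With a replicate block in place of the cohort, refeeding called 0% of genes in peritoneal macrophages against 0.432%, colonic minus islet macrophages 4.9% against 8.94%, Mzb1 was not called against adipose tissue macrophages (adjusted p 0.076) and Cd79a was called against islet macrophages (adjusted p 0.0389); no other member call changed. Within each population of the refeeding experiment, few same-numbered refed and fasted libraries deviated together. Whether same-numbered libraries of different populations did so was not tested. Without the replicate block, diet STZ minus normal called 0% of genes in islet and STZ minus high-fat diet 0.257% in peritoneal macrophages, and 0 members.

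Leaving out each replicate in turn called 0 members in the colonic refeeding and all diet comparisons. It gave 0% to 0.00827% of genes for islet STZ minus normal diet, 0.228% to 2.29% for peritoneal STZ minus normal diet (2.29% without STZ library 2), 0% to 0.487% for peritoneal STZ minus high-fat diet (0.487% without STZ library 2) and 0% to 0.0152% for peritoneal high-fat minus normal diet. Most libraries outside the colon held few or no counts of Jchain, Mzb1 and Ms4a1, where a lack of expression and a level below detection at this depth cannot be told apart.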

Other observations

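Further refeeding libraries from outside the colon differed in their leading V genes. Refed monocytes 5 read Ighv11-2 as its leading heavy chain V gene, at 23.2% of 302 counts (95% Wilson interval 18.8 to 28.3%), with Igkv1-110 leading the kappa chain at 52.6% (49.2 to 56%). Fasted islet 5_6 read Ighv1-53 at 48.8% (43.3 to 54.2%). Fasted peritoneal 2 read Ighv1-53 at 53.9% (44.3 to 63.1%) and Igkv4-72 at 69.2% (60.9 to 76.4%).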
